A study of Isoetes sinensis with 3 samples.

Results

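The genes described here are those of the quillwort *Isoetes sinensis*, a tetraploid aquatic lycophyte, whose coding sequence lay in exactly 3 segments with a middle segment of 130 bp. A CDS segment is the coding stretch of an exon, and the gap between neighbouring segments is an intron. They were picked by these lengths alone from the deposited annotation, and 87 of the 57303 annotated genes met the rule, or 87 of the 7501 genes with 3 CDS segments. The series holds 3 RNA libraries, 1 each from root, shoot and sporophyte of plants harvested at 1 site with no treatment named, and the methods call the third tissue sporangia. The study joined ab initio predictions, protein alignments and transcript models into 1 gene set with Evidence Modeler, in which the tissues are not kept apart. Expression in the 3 tissues was not analysed here. The values below cover every gene that met the rule and have no replicates, so they are descriptions without p-values.

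Plant R2R3-MYB genes are widely known for this kind of structure. R2R3-MYB proteins are transcription factors that bind DNA through a pair of neighbouring MYB repeats at the start of the protein, and in flowering plants they act in cell fate, secondary metabolism and stress responses. In many of them the first exons encode the DNA-binding repeats, at conserved intron positions, and the last exon encodes a more variable region. The paper reports R2R3-MYB genes in this genome, with most members of a subgroup on a pair of chromosomes, and lists its transcription factor genes. The 87 genes were not compared with that list. The annotation gives neither names nor functions, so whether any of the 87 genes encodes such a protein was not checked. The genes are named below by their identifiers without the prefix evm.TU that all of them carry.

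A middle segment of 130 bp was the commonest of the 938 middle lengths found in genes with 3 CDS segments, with 87 genes. The next were 156 bp with 72 genes and 192 bp with 64 genes. Just outside the rule, 28 genes had a middle segment 1 bp shorter and 26 had one 1 bp longer. The 20 other lengths from 120 to 140 bp, these included, had 22 to 46 genes each, with a median of 32.5. Because the rule chose this length, its count is a description. The first intron lay in phase 1, that is after the first base of a codon, in 17.9% of the genes 1 bp below and in 30.8% of those 1 bp above. None of the genes at either length had the first segment most frequent in the 87 genes. That segment was chosen from the 87 genes, and only 0.378% of all other genes with 3 CDS segments had it. Its absence among so few genes therefore says little. Both lengths next to 130 bp had fewer genes and a lower share in phase 1. Over the 20 other lengths from 120 to 140 bp that share ran from 7.5% at 136 bp to 60.9% at 134 bp, against 74.7% at 130 bp.

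**Figure D1:**
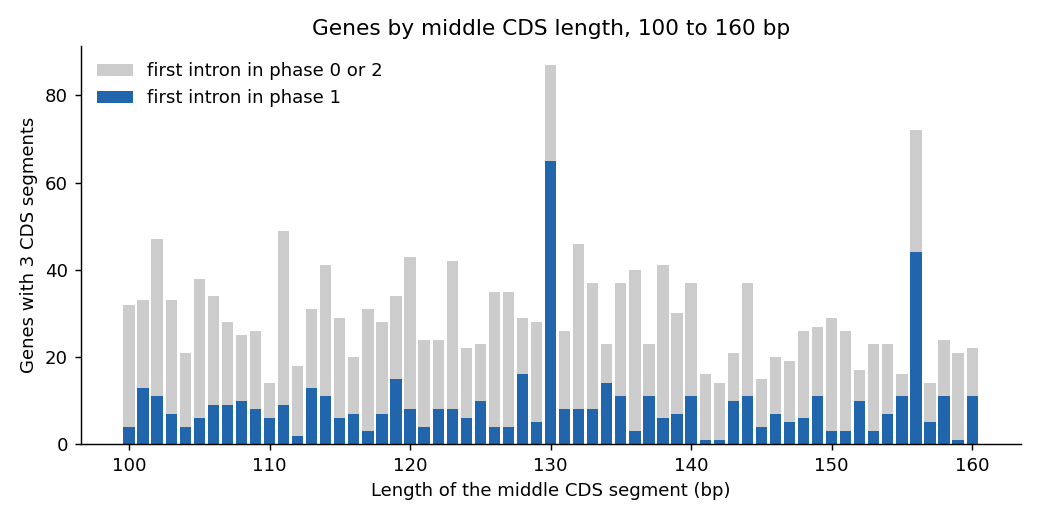
Number of genes with 3 CDS segments (vertical axis) at each length of the middle segment from 100 to 160 bp (horizontal axis), with the genes whose first intron was in phase 1 in blue and the rest in grey. The 87 genes at 130 bp stand above the 28 genes 1 bp below and the 26 genes 1 bp above, and 65 of them are in blue.

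The first CDS segment took 40 lengths, from 6 bp in Chr5.158 (chromosome 5, 3285648 to 3286416) to 537 bp in Chr15.1430 (chromosome 15, 27139916 to 27141169). Its median was 136 bp, against 158 bp in the other 7414 genes with 3 CDS segments. A first segment of 44 codons and 1 base was the commonest, in 19 of the 87 genes (21.8%), whereas 0.378% of the other genes had it. These 19 genes are called the 44-codon group below. The next lengths were 136 bp (45 codons and 1 base) with 12 genes, 100 bp and 142 bp with 5 each and 151 bp with 3. The remaining lengths were rare, and 27 of the 40 were held by 1 gene each. The 44-codon first segment was seldom followed by 130 bp outside the rule. Among all genes with at least 2 CDS segments and this first length, 15.3% had a second segment of 130 bp, and these were 20 genes. Of them, 19 were among the 87 genes, and the remaining gene, Chr10.4122, had 4 segments, the last 2 of 194 and 110 bp. Among the 28 other genes with 3 CDS segments and this first length, the commonest middle length was 113 bp, with 4 genes.

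The first intron was in phase 1 in 65 of the 87 genes (74.7%), in phase 0 in 10 and in phase 2 in 12. Among the other genes with 3 CDS segments, 31.6% had a first intron in phase 1. Since 130 leaves a remainder of 1 after division by 3, the phase of the second intron follows from that of the first, so only the phase of the first was compared. The phase column of the annotation matched the phase computed from the lengths in all 87 genes. Of the 55 middle lengths held by at least 30 genes, the share in phase 1 was higher at only 2: at 672 bp it was 100% of 60 genes, and at 65 bp it was 85.1% of 47 genes. The commonest first length took a larger share at 3 of these middle lengths than the 21.8% seen at 130 bp. A preferred phase or a preferred first length was thus not found at 130 bp alone.

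Most of the 65 phase 1 genes had a first length near that of the 44-codon group. Of them, 53 (81.5%) had a first segment within 33 bp of it, from 100 to 166 bp, a limit chosen after the lengths were seen. The same held for 7 of the 22 genes in phase 0 or 2. The 53 include the 19 genes of the 44-codon group, which lie at the centre by definition and could only be in phase 1. The contrast was thus partly fixed by the choice of centre, and the share of other genes in this range is not given here. A change of the first length by a multiple of 3 keeps the phase, as between 100, 136, 142 and 151 bp. Apart from the 44-codon group, 31 phase 1 genes had a longer first segment and 15 a shorter one, and their range was 10 to 403 bp. The genes were therefore described in 4 groups by first segment: the 44-codon group (19 genes), another length in phase 1 (46 genes), phase 0 (10 genes) and phase 2 (12 genes).

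The last CDS segment was long in the 44-codon group. It ranged from 250 to 1042 bp, with a median of 919 bp. The lengths fell on both sides of an empty range, with 6 genes from 250 to 622 bp and 13 genes from 826 to 1042 bp. The longest, 1042 bp, belonged to Chr12.2152 (chromosome 12, 39017568 to 39019536), whose coding sequence summed to 1305 bp. In the other phase 1 genes the median was 440.5 bp (range 46 to 856 bp), in phase 0 it was 206 bp (20 to 536 bp) and in phase 2 it was 187.5 bp (69 to 342 bp). The other genes with 3 CDS segments had a median of 222 bp, close to the phase 0 and phase 2 genes. The shortest last segment, 20 bp, was in Chr5.1881 (chromosome 5, 34102229 to 34104054), a phase 0 gene with a first segment of 135 bp. Among all 87 genes the median was 421 bp. The ranges of the 4 groups overlapped, but no phase 0 or phase 2 gene reached the 826 bp at which the upper 13 genes of the 44-codon group began. That limit was read from these lengths after they were seen.

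The last segment was the longest of the 3 in 72 of the 87 genes (82.8%), against 43.6% of the other genes with 3 CDS segments. It was so in all 19 genes of the 44-codon group, in 43 of the 46 other phase 1 genes, in 5 of 10 phase 0 genes and in 5 of 12 phase 2 genes. The coding sequence was a multiple of 3 in all 87 genes, as in 98.2% of the other genes. Its median sum was 1182 bp in the 44-codon group, 709.5 bp in the other phase 1 genes, 430.5 bp in phase 0 and 493.5 bp in phase 2. The 12 genes with a first segment of 136 bp, 1 codon more than the 44-codon group, had last segments of 361 to 658 bp (median 472 bp). They too had an empty range, with 10 genes up to 556 bp and 2 at 658 bp. None of these 12 reached the upper range of the 44-codon group.

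**Figure D2:**
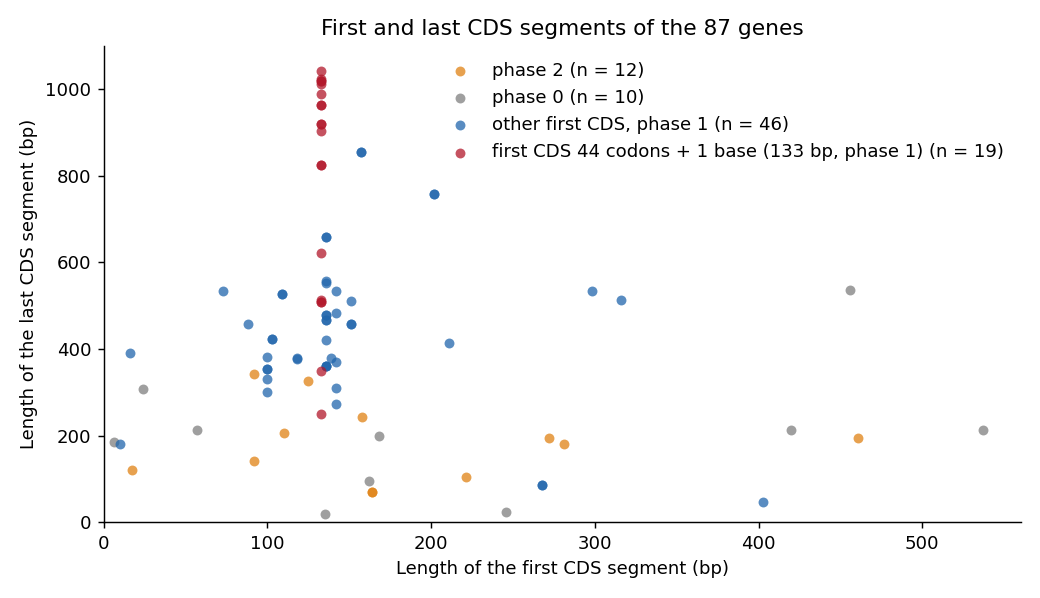
Length of the last CDS segment (vertical axis, bp) against that of the first (horizontal axis, bp), with 1 point per gene and darker points where genes coincide. The 19 genes of the 44-codon group (red) form a column that reaches 1042 bp, the other phase 1 genes (blue) lie mostly between 100 and 166 bp on the horizontal axis, and phase 0 (grey) and phase 2 (orange) genes are spread along it with short last segments.

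Introns were short. The first intron had a median of 112 bp (range 59 to 2926 bp) and the second a median of 92 bp (59 to 4304 bp), whereas the medians in the other genes with 3 CDS segments were 177 and 149 bp. Both introns were at most 250 bp long in 62 of the 87 genes (71.3%), against 37.7% of the other genes. The share was 89.5% in the 44-codon group, 78.3% in the other phase 1 genes, 30% in phase 0 and 50% in phase 2. By this measure of both introns together, short introns were most frequent in the phase 1 genes, and only phase 0 lay below the 37.7%.

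The first intron was the longer in 56.3% of the 87 genes, near the 51.3% of the other genes with 3 CDS segments. Which of the introns was the longer differed between the groups, of which phase 0 and phase 2 hold few genes. In the 44-codon group the median was 92 bp for the first intron and 112 bp for the second, and the first was the longer in 5 of 19 genes. In the other phase 1 genes the medians were 116 and 85.5 bp, and the first was the longer in 31 of 46. In phase 0 they were 320.5 and 81 bp, with the first longer in 8 of 10 genes, and in phase 2 they were 123 and 195.5 bp, with the first longer in 5 of 12. An intron over 1 kb was found in 8 of the 87 genes (9.2%), against 19.1% of the other genes with 3 CDS segments. Of the 8, 4 were in phase 1 (6.15% of 65 genes) and 4 in phase 0 or 2 (18.2% of 22 genes). None was in the 44-codon group. The longest first intron, 2926 bp, was in Chr19.579 (chromosome 19, 9971440 to 9975108), and the longest second intron, 4304 bp, was in Chr20.2297 (chromosome 20, 43793010 to 43797750). The latter gene also had a first segment of 10 bp, the shortest in phase 1.

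**Figure D3:**
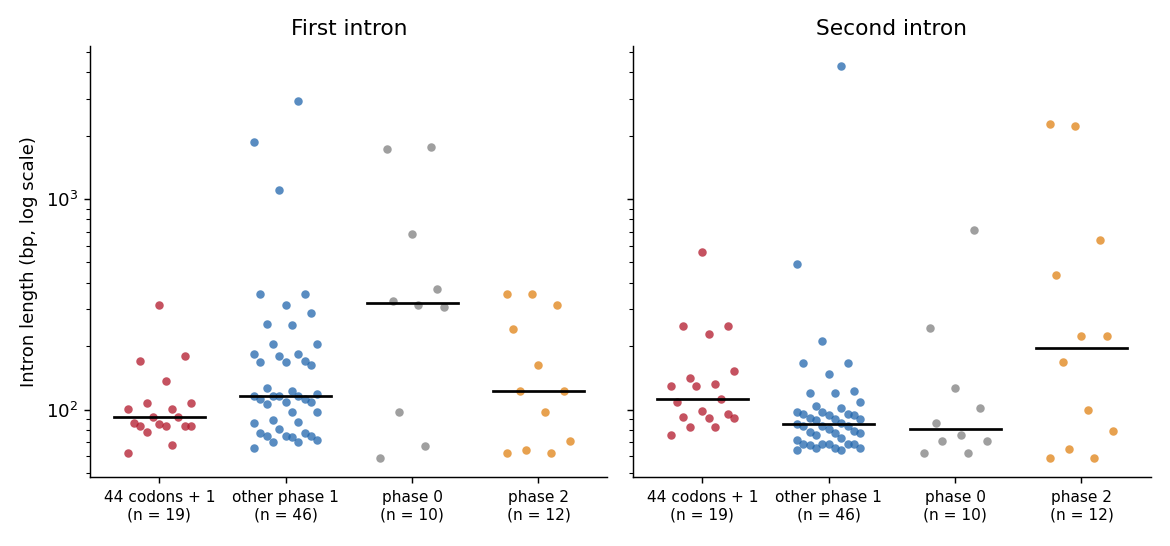
Length of the first (left) and second (right) intron on a log scale in bp, for the 4 groups by first segment, with 1 point per gene and a black line at the median of each group. The median of the first intron runs from 92 bp in the 44-codon group to 320.5 bp in phase 0, and that of the second from 81 bp in phase 0 to 195.5 bp in phase 2.

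Untranslated regions were annotated in 51 of the 87 genes (58.6%), against 42% of the other genes with 3 CDS segments. The share was 78.9% in the 44-codon group, 60.9% in the other phase 1 genes, 40% in phase 0 and 33.3% in phase 2. Whether a gene had one moved with the way its model was labelled: 53 genes had no source name and 51 of these had a UTR, whereas none of the 34 genes that named Evidence Modeler had one. The label also moved with the phase, since 69.2% of the phase 1 genes and 36.4% of the phase 0 and 2 genes had no source name, against 44.6% of the other genes. Among the genes without a source name the share in phase 1 was 84.9%, which restates the same counts, and the median last segment was 514 bp. Both were above those of all 87 genes, and this set is richer in phase 1 genes. The part of the label in the differences between the groups was not tested. In 7 genes (8.05%) the UTR added further exons, so that they had more than 3 exons in all, against 11.1% of the other genes. Of the 7 genes, 5 were in phase 0 or 2.

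The genes were present on all 22 pseudochromosomes, and 3 lay on unplaced scaffolds. Chromosomes 19 and 20, which are a pair of partner chromosomes in this tetraploid, held 10 and 14 of them. Together they held 24 of 87 (27.6%), against 8.09% of the other genes with 3 CDS segments. Chromosome 20 had the most by share, since 4.88% of its genes with 3 CDS segments were among the 87, followed by chromosome 19 with 2.97%. Each of the other 20 pseudochromosomes had 1 to 8 genes (median 2), and the highest share there was 2.33%, on chromosome 5.

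The excess on chromosomes 19 and 20 lay in the phase 1 genes outside the 44-codon group. Of these 46 genes, 21 (45.7%) were on the pair, 8 on chromosome 19 and 13 on chromosome 20. By contrast, 1 of the 19 genes of the 44-codon group was there, and 2 of the 22 genes in phase 0 or 2. The 44-codon group was spread over 11 chromosomes, with at most 4 genes on any of them (chromosome 12). The 44-codon group thus showed no excess on the pair. The other phase 1 genes were not confined to it, since 25 of the 46 lay elsewhere.

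Some first lengths were frequent on the pair and others were not, beside the 45.7% of all phase 1 genes outside the 44-codon group. Of the 12 genes with 136 bp, 5 were on chromosome 19 and 3 on chromosome 20. Of the 5 genes with 100 bp, 1 was on chromosome 19, 3 were on chromosome 20 and the last was on an unplaced scaffold. Of the 5 genes with 142 bp, 1 was on chromosome 19 and 3 were on chromosome 20. Of the 3 genes with 151 bp, 1 was on the pair. Among the phase 1 lengths held by 2 genes each, 103 and 268 bp had 1 gene there and 109, 118, 157 and 202 bp had 0. The last segments of the 22 phase 1 genes on the pair were shorter than elsewhere, with a median of 376 bp (85 to 535 bp) against 553 bp (46 to 1042 bp) in the other 43. The 44-codon group, with its long last segments, made up 18 of the 43 genes elsewhere and 1 of the 22 on the pair. Without this group the medians were 382 bp in 21 genes and 514 bp in 25, so the gap was smaller. None of the 22 exceeded 535 bp. Without the 44-codon group the introns had medians of 116 and 84 bp on the pair and 126 and 90 bp elsewhere.

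**Figure D4:**
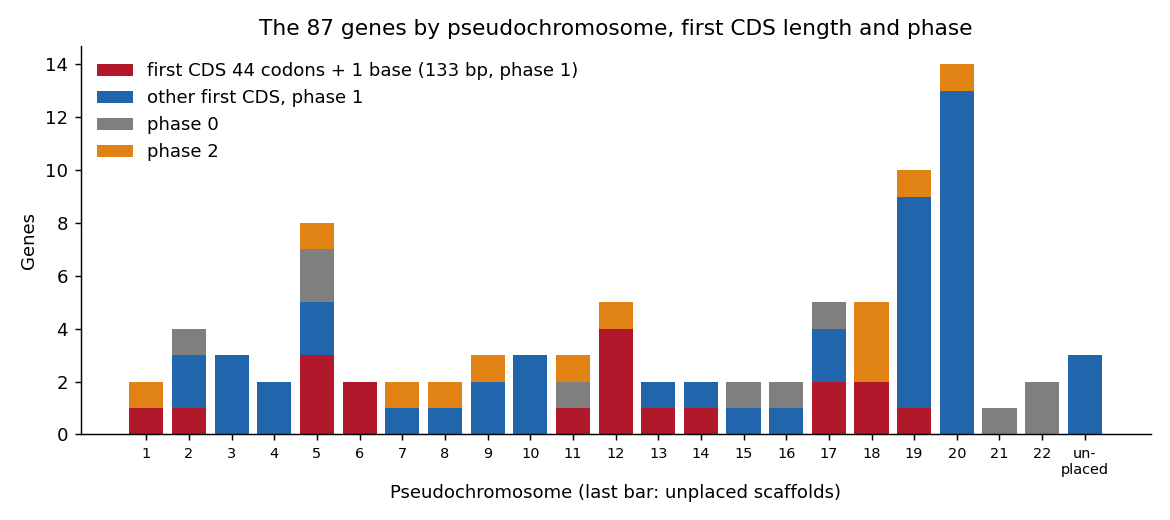
Number of the 87 genes on each pseudochromosome and on unplaced scaffolds (vertical axis), stacked by group of first segment. Chromosomes 19 and 20 reach 10 and 14 genes, almost all of them phase 1 genes outside the 44-codon group (blue), while the 44-codon group (red) is spread over 11 chromosomes.

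The genes of the pair were gathered into stretches within which no gap between neighbouring members of the class exceeded 5 Mb, a limit set with their positions known. On chromosome 19, 8 of the 10 genes lay between 5.60 and 10.9 Mb, in a stretch with 183 genes in all and 27 with 3 CDS segments. All 8 were in phase 1. On chromosome 20 there were 2 stretches of this size, 1 from 5.55 to 15.2 Mb with 6 genes and 1 from 43.8 to 47.4 Mb with another 6, and the 12 genes in them were in phase 1 as well. The remaining 2 genes of chromosome 20 lay between them, from 27.3 to 31.4 Mb. The stretch at 43.8 to 47.4 Mb was the denser, with its 6 genes among 18 of 3 CDS segments, against 6 among 42 in the first. In the matching region of chromosome 19, the only gene of the class was Chr19.2387 at 44.0 Mb. The most genes found within 5 Mb were 6 on each of chromosomes 19 and 20, 4 on chromosome 12 and no more than that on any other.

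Neighbouring genes were joined in a cluster where no more than 10 places in the gene order separated them. By this measure 20 of the 87 genes (23%) lay in 9 clusters, whereas 5.4% of the other genes with 3 CDS segments lay near a gene of their own middle length. That background comes from classes that are mostly smaller than 87 genes, and among the middle lengths with at least 30 genes, shares of 23.4% at 192 bp, 23.6% at 76 bp and 30% at 136 bp were as high. The clusters were small, 7 of 2 genes and 2 of 3 genes, and none of the other 54 middle lengths compared had a cluster over 3 genes either. Of the 20 clustered genes, 19 were in phase 1, and 5 clusters with 11 genes were on chromosomes 19 and 20.

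The largest clusters were on chromosomes 12 and 19. On chromosome 19, Chr19.325 (5595125 to 5596216), Chr19.327 (5621784 to 5622752) and Chr19.328 (5657645 to 5658557) followed each other on the minus strand with 1 other gene between the first pair. Chr19.325 belonged to the 44-codon group, with a last segment of 349 bp. The latter 2 had equal coding lengths throughout, with 136 bp in the first segment and 361 bp in the last, but their first introns were 97 and 81 bp and their second introns 91 and 69 bp. On chromosome 12, the cluster ran from Chr12.2134 (38712388 to 38714002) to Chr12.2152, with Chr12.2142 between them. All 3 were of the 44-codon group, and their last segments were 622, 826 and 1042 bp. On chromosome 20 the cluster with the lowest position held Chr20.507 (9577660 to 9578855) and Chr20.510 (9647415 to 9648417), with first segments of 142 and 151 bp and last segments of 535 and 511 bp.

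Neighbours in a cluster resembled each other in some lengths only. Over the 11 steps from a gene to the next one in its cluster, the strand was the same in 7, the first segment was of equal length in 6, the last segment in 1 and an intron in 0. The gap between them was 14.9 to 314 kb, with a median of 90.1 kb, and in 2 steps no gene lay between. Of all 2080 pairs that can be formed from the 65 phase 1 genes, 12.8% had equal first segments and 1.2% equal last ones. The only step with an equal last segment, Chr19.327 to Chr19.328, was also 1 of the 2 with no gene between. In the other, Chr5.157 to Chr5.158, none of the lengths was equal.

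*I. sinensis* is tetraploid, and its 22 pseudochromosomes form 11 pairs. For each gene an expected place on the partner chromosome was read from anchor genes, which have at least 5 CDS segments and a list of internal lengths held by exactly 2 genes, 1 on each chromosome of a pair. The interval between the nearest anchors was widened by 10 genes on each side and spanned 22 to 321 genes, with a median of 33. An expected place was found for 81 of the 87 genes, and 55 of the 81 (67.9%) had another of the 87 genes there. Among the other genes with 3 CDS segments, 31.7% had a gene of their own middle length at the expected place. Over the 54 other middle lengths held by at least 30 genes, this share ran from 0% to 65.7% with a median of 33.3%, and none exceeded the share at 130 bp. The next were 65.7% at 162 bp, 64.4% at 65 bp and 61.7% at 192 bp. The class of 130 bp is also the largest, and the part of its size was not tested.

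The share differed between the groups. It was 17 of 19 genes (89.5%) in the 44-codon group, 27 of 41 (65.9%) in the other phase 1 genes, 3 of 9 (33.3%) in phase 0 and 8 of 12 (66.7%) in phase 2. Some of these counterparts lay in another phase than the gene itself. Counting only those of the same phase, the phase 0 share was 2 of 9 (22.2%) and the phase 2 share 6 of 12 (50%), while both phase 1 shares stayed as they were. The phase 0 gene concerned was Chr5.158, which met Chr6.138 of the 44-codon group and shared none of the 4 lengths with it. In the 44-codon group, Chr12.2108, Chr12.2134, Chr12.2142 and Chr12.2152 all met the single gene Chr11.2203. Of them, only Chr12.2142 shared more than the first length with it. Chr19.325 met Chr20.298, and these genes also shared none of the 4 lengths. The 89.5% thus counts genes at the expected place, not only close copies. On chromosome 19, 9 of 10 genes had a counterpart at the expected place on chromosome 20, whereas 8 of the 14 genes of chromosome 20 had one on chromosome 19. Of the phase 2 genes with one, Chr18.2680 and Chr18.2748 rested on an interval of 321 genes, and both met the same gene of chromosome 17, which has a first intron in phase 1.

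In 14 cases the match was one of exactly 1 gene to 1 gene in both directions. The first segment was of equal length in 10 of these 14 pairs (71.4%), the last segment in 11 (78.6%), the first intron in 7 (50%) and the second intron in 9 (64.3%). In the 897 such pairs of the other genes with 3 CDS segments, the shares were 85.2%, 89.6%, 56% and 57.4%. All 4 lengths were equal in 4 of the 14 pairs (28.6%) and in 30.7% of the 897. Both coding lengths were equal together in 8 of the 14 pairs (57.1%), against 78.1% of the 897. With 14 pairs, each pair counts for 7.14 percentage points. The share with both coding lengths equal thus lay nearly 3 pairs below its background, whereas each length taken alone and all 4 together lay within 2 pairs of theirs.

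The 4 pairs with all lengths equal were the following. Chr3.1520 (chromosome 3, 29059419 to 29061176) and Chr4.1479 (chromosome 4, 25194090 to 25195847) had segments of 157, 130 and 856 bp with introns of 183 and 94 bp. Chr3.1922 (36580017 to 36581359) and Chr4.1999 (34834083 to 34835425) had segments of 136, 130 and 658 bp with introns of 205 and 120 bp. The pairs of chromosomes 13 and 14 were Chr13.58 (1768647 to 1769751) with Chr14.57 (965044 to 966148), both of the 44-codon group with last segments of 508 bp, and Chr13.1174 (22606506 to 22607699) with Chr14.1349 (24355162 to 24356355), with segments of 151, 130 and 457 bp. All 4 pairs were in phase 1, and all 4 lay on the plus strand of both chromosomes.

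In 3 of the 14 pairs the last segments differed. The widest difference in the last segment was 201 bp, between Chr11.2489 (chromosome 11, 46468619 to 46470273; 141 bp) and Chr12.2380 (chromosome 12, 43760090 to 43761755; 342 bp), a phase 2 pair whose first segments of 92 bp and introns of 354 and 223 bp were equal. Chr15.1850 (34086341 to 34087517) and Chr16.1703 (32063610 to 32064415) had last segments of 415 and 379 bp and first segments of 211 and 118 bp, and none of their 4 lengths was equal. Chr1.191 (3271708 to 3273763) and Chr2.143 (3332520 to 3334625), both of the 44-codon group, had last segments of 1012 and 1018 bp, and both of their introns differed. In the remaining 11 pairs the last segment was equal.

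Equal lengths were also looked for without regard to place. Of all pairs that can be formed from the 87 genes, 3415 shared none of the 4 lengths that the rule did not use, 292 shared 1, 15 shared 2, 12 shared 3 and 7 shared all 4. The 19 pairs with at least 3 equal lengths used 38 different genes. Of these pairs, 16 joined partner chromosomes, 2 joined chromosomes that are not partners and 1 joined a chromosome and an unplaced scaffold. In 8 of the 19 both CDS lengths were equal and an intron differed, and in 4 both introns were equal and the last segment differed. Chr19.327 and Chr19.328, neighbours on chromosome 19, had equal CDS lengths but neither intron equal, so they are not among the 19. Pairs with at least 3 equal lengths were thus found almost wholly between partner chromosomes, and never between genes of the same chromosome.

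The exceptions, named here after their values were seen, were of unequal kind. Chr5.3080 (chromosome 5, 57090717 to 57092726) and Chr20.795 (chromosome 20, 15200204 to 15202202) had equal segments of 268, 130 and 85 bp, equal introns of 112 and 166 bp and 5 exons each, and neither had a counterpart on its partner chromosome. Chr5.1321 (23738182 to 23739314) and Chr10.1424 (27697920 to 27699114) had segments of 109, 130 and 526 bp and differed by 4 bp in the first intron, and these 2 genes also lacked a counterpart. On partner chromosomes but without an expected place at the chromosome ends, Chr9.4718 (88158153 to 88159889) and Chr10.4132 (78009099 to 78010827) differed by 3 bp in the last segment, 556 against 553 bp, and in none of the other lengths.

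On chromosomes 19 and 20, 4 pairs had at least 3 equal lengths. Chr19.327 and Chr20.298 (5546358 to 5547159) both had 136, 130 and 361 bp, and with Chr19.328 they formed the only set of 3 genes with all coding lengths equal. Chr19.486 (8173643 to 8174929) and Chr20.469 (8428162 to 8429469) had last segments of 478 bp, with second introns of 72 and 73 bp. Chr19.514 (8870583 to 8871719) and Chr20.507 had equal first segments of 142 bp and equal introns of 109 and 64 bp, and last segments of 484 and 535 bp. Chr19.639 (10883202 to 10884904) and Chr20.620 (11470117 to 11471819) had all 4 lengths equal, with segments of 136, 130 and 466 bp and a first intron of 355 bp. These 4 pairs followed each other in the same order along the first stretch of both chromosomes. In this stretch the cluster of 3 genes on chromosome 19 stood against Chr20.298 alone, and the cluster of Chr19.630 and Chr19.639 against Chr20.620 alone. In the other direction, the cluster of Chr20.507 and Chr20.510 stood against Chr19.514 alone.

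**Figure D5:**
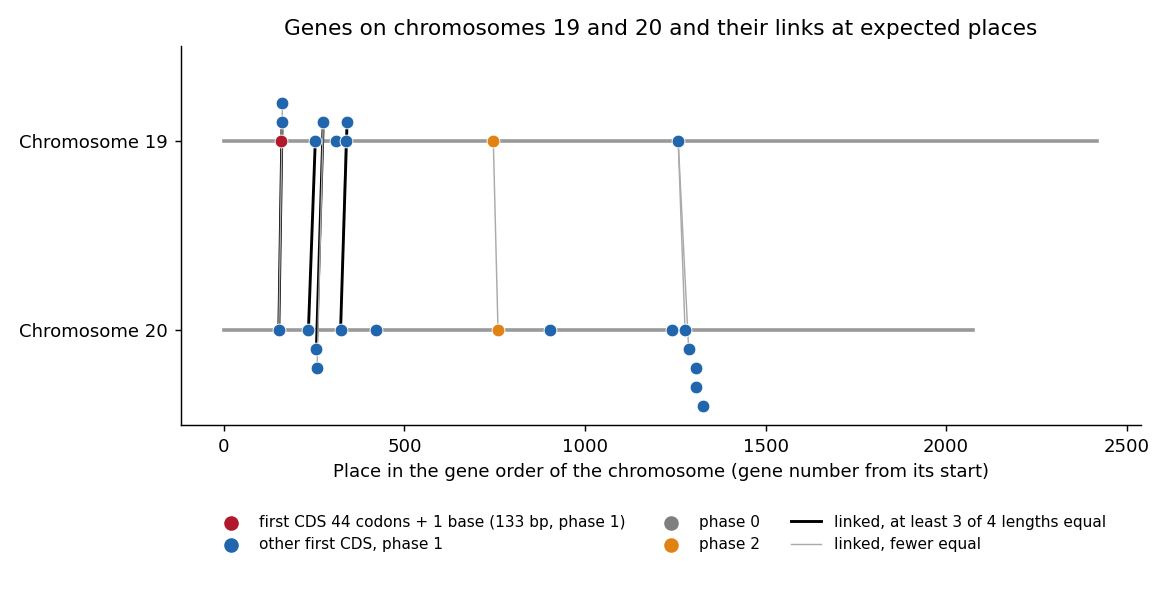
The genes on chromosomes 19 (top) and 20 (bottom) by their place in the gene order (horizontal axis), coloured by group of first segment, with genes fewer than 25 places apart stacked away from the line. Lines join genes at each other's expected place, black where at least 3 of 4 lengths were equal: the 4 such pairs lie in the first stretch, and the 6 genes of chromosome 20 in its second stretch face 1 gene of chromosome 19.

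In the second stretch of chromosome 20 the counterparts were mostly missing from chromosome 19. Chr20.2366 (45244188 to 45244965) and Chr20.2384 (45559093 to 45559873) had first segments of 100 bp, like Chr19.2387 (44037411 to 44038250) at their expected place, but shared no other length with it. Chr20.2297, Chr20.2439, Chr20.2444 and Chr20.2483 had no counterpart. The 3 genes on unplaced scaffolds were compared with these. Scaffold3710.40 had all 4 lengths equal to those of Chr20.2366, with segments of 100, 130 and 355 bp and introns of 116 and 77 bp. Scaffold3711.23 had segments of 103, 130 and 424 bp, equal to those of Chr20.2483 (47432180 to 47433037), with introns of 126 and 86 bp against 116 and 85 bp. Scaffold3711.80, with segments of 139, 130 and 379 bp, shared at least 3 lengths with none of the other genes. The other genes of these scaffolds were compared with the chromosomes by their lists of internal CDS lengths. The 8 genes of Scaffold3710 with at least 5 CDS segments gave 4 matches on chromosome 19, from 43.2 to 43.6 Mb, and 3 on chromosome 20, from 44.6 to 44.8 Mb. The 19 such genes of Scaffold3711 gave 10 matches on chromosome 19, from 44.4 to 45.7 Mb, and 5 on chromosome 20, from 46.0 to 47.3 Mb. The matches on chromosome 20 thus lay within its second stretch. Where these scaffolds belong was not tested.

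No counterpart was found at the expected place for 26 of the 81 genes. These were 14 other phase 1 genes, 10 genes in phase 0 or 2, and 2 of the 44-codon group. Of the 26, 16 named Evidence Modeler as the source of their model, against 15 of the 55 genes with a counterpart. In 12 of the 26 cases a gene with another number of CDS segments, or another order of them, held a segment of 130 bp at the expected place. The 18 genes found there had up to 35 CDS segments. How often such a place holds any segment of 130 bp was not counted, so these genes are not read as altered copies. Only in 1 case were flanking lengths equal too: opposite Chr2.3227 (chromosome 2, 61607445 to 61608767), whose segments were 57, 130 and 212 bp, Chr1.3541 (chromosome 1, 67813010 to 67816534) had 8 CDS segments that ended with 130 and 212 bp around an intron of 244 bp in both genes. That phase 0 gene and the last part of the longer gene model thus had equal lengths.

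Outside the rule, 111 genes had more than 3 CDS segments with the second one of 130 bp, against 134 with a second one 1 bp shorter and 102 with one 1 bp longer, so the 130 bp length was not in excess there. The first intron was in phase 1 in 29.7% of the 111. Genes with 2 CDS segments and a first one of 263 bp, the sum of the first 2 segments in the 44-codon group, numbered 16, and the lengths from 253 to 273 bp had 4 to 25 genes each with a median of 15. Genes with 2 CDS segments and a second one of 130 bp numbered 11, against 22 with one 1 bp shorter and 16 with one 1 bp longer. Genes with a second segment of 130 bp were thus more numerous above 3 CDS segments than at 3, but they exceeded both neighbouring lengths at 3 alone.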

How the data were processed

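The series deposited 1 gene annotation for *I. sinensis*, on the study's own assembly of 22 pseudochromosomes and unplaced scaffolds, with positions in bp counted from 1. As the methods describe, the authors used Evidence Modeler to merge gene predictions (Augustus, Genscan), protein alignments (GeneWise) and transcript models (PASA). FastQC, HISAT2 and Cufflinks stand in the submitters' processing notes without a role. Depth, and so the precision of any expression value, was not analysed here, because the deposited values are positions and phases (other units than counts).

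Segment and intron lengths, phases and gene order were computed here with Python 3.11.15 and NumPy 2.4.6, and intervals with SciPy 1.17.1. The scripts were tested on simulated gene models. Clusters join genes at most 10 places apart, on either strand. Expected places come from anchors with at least 5 CDS segments, widened by 10 genes. The other 7414 genes with 3 CDS segments served as background.

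The genes, groups and limits were chosen with earlier results of these data known. Genes were named by a rule: the largest clusters, the extreme lengths, the 1:1 pairs with all lengths equal or with the widest difference in the last segment, and sets of 3 with equal coding lengths. Further genes were named after their values were seen. The alternatives were other definitions of the class (pseudochromosomes only, a filter on models, exons in place of CDS, more segments, a middle segment within 1 bp, models without a source name, without chromosomes 19 and 20), other limits for clusters, anchors and intervals, a tolerance for equal lengths, and means in place of medians. Sequences were not used here.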

Additional observations from a re-analysis of the deposited data

How the results depend on the processing

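Of 116 alternatives over 15 results, 96 stayed within the 95% interval of the reported value, or within 1.5 times a count, and 20 moved. Widening the rule to at least 3 CDS segments gave 198 genes, of which 10.1% had the 44-codon first segment, 49.5% a first intron in phase 1 and 16.2% a place on chromosomes 19 and 20, with a median last segment of 219.5 bp. A middle segment within 1 bp of 130 bp gave 141 genes, with 13.5% in the 44-codon group, 55.3% in phase 1, a median second intron of 103 bp and 53.1% with a gene at the expected place. Both alternatives add genes outside the class by construction. Models without a source name numbered 53, with 84.9% in phase 1, 96.2% with a UTR and a median last segment of 514 bp. With exons in place of CDS segments, 8.24% of 85 genes had the 44-codon first length, since the UTR then counts, and the median last one was 535 bp. Without chromosomes 19 and 20, 14.3% of the genes were in clusters. With 20 places in place of 10, the largest cluster had 5 genes. Means were 251.3 bp for the first intron and 229.3 bp for the second, above the medians because of a few long introns. Intervals of at most 100 genes, an alternative chosen after seeing the data, and the other limits for anchors and intervals changed none of the results on counterparts and pairs beyond these bounds. The intervals treat genes as a sample and cover counting error only, and 14 pairs give wide ones. No paired analysis was possible because each tissue had 1 library and the annotation carries no values per library.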
